A study of Sus scrofa with 2 samples.

Results

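The cells described here were 625 barcodes of the EIS library of pig endometrium, chosen by their own unique molecular identifier (UMI) counts and labelled trophoblast-like for UPK2, GATA3 and THBS1. They were selected on 4 conditions: at least 500 UMIs and 300 genes, at least 3 UMIs of SMPDL3A and PAG6 together, at most 1 UMI of CHGA and CYP11A1 together, and at least 2 UMIs of UPK2, GATA3 and THBS1 together. They made up 7.21% of the 8669 kept EIS barcodes (exact Clopper-Pearson 95% interval 6.67 to 7.77), and the kept barcodes of both libraries numbered 19466. The 7 genes of the rule were chosen on these data, so their levels in the members are a description and support nothing.

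The study compared endometrium from 2 Yorkshire sows, each 3 years old, by 10x Genomics 3′ single-cell RNA sequencing. The EIS sow, which stood for implantation, was sampled on day 30 after a successful insemination. The EL sow, which stood for embryo loss, had aborted earlier and then failed to conceive at 3 inseminations in a row; no gestation day is given for this sow. Each group was 1 sow and 1 library, so sow, pregnancy and library cannot be told apart, no test across animals was possible, and every interval given here covers counting error only.

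The pig placenta does not invade the uterus. A layer of trophoblast, the outer epithelium of the conceptus, lies against the uterine surface epithelium and takes up the secretions of the glands. Trophoblast of pigs and other hoofed mammals makes pregnancy-associated glycoproteins, relatives of aspartic proteases, and GATA3 is a transcription factor of early trophoblast. Uroplakins such as UPK2 are membrane proteins best known from the plaques on the surface of the bladder lining, and THBS1 is a secreted matrix glycoprotein that binds cells.

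The members had a median of 3454 UMIs and 1503 genes, over a range of 603 to 55851 UMIs. A median of 8 UMIs of SMPDL3A and PAG6 together was found per member, from 3 to 127, and a median of 4 UMIs of UPK2, GATA3 and THBS1 together, from 2 to 226. THBS1 carried most of the choice. It was found in 573 members, against 282 with GATA3 and 250 with UPK2, and 93 members had all 3 genes. There were 199 members chosen by THBS1 alone, 38 by GATA3 alone and 1 by UPK2 alone. Without THBS1 the rule would have kept 236 barcodes, and with at least 3 UMIs of the 3 genes in place of 2 it would have kept 446. The members just inside the limit of 3 UMIs of SMPDL3A and PAG6 numbered 88 and held 1002.3 counts of PLET1 per 1000000 UMIs (CPM), and the 159 barcodes just outside it held 614 CPM.

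The EL library held no such cells. None of its 10797 kept barcodes met the rule, which allows a share of up to 0.0278%, and 3 of them had at least 3 UMIs of SMPDL3A and PAG6. PLET1, a placental surface protein gene, had 0 UMIs in the EL library, PAG6 had 5 and CYP11A1 had 2. The libraries shared 27 barcodes, and 2 members carried a barcode that was also kept in EL. The comparisons below were made within the EIS library.

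The members were first placed among all EIS barcodes, which were clustered without the 7 rule genes and without PLET1 and PLBD1. A cluster was called trophoblast-like when SMPDL3A, PAG6, PLET1 and PLBD1 were all at least 2-fold above the other EIS barcodes, a limit set after the clusters had been seen. Of 27 clusters 3 met it, and they held 370 of the 625 members (59.2%, 55.2 to 63.1). The largest share, 230 members, lay in a cluster led by FXYD4, SMPDL3A and PLET1, a further 132 lay in one led by PAG6 and CTSD, and 8 in one led by SMPDL3A and CHGA. SMPDL3A and PAG6 both chose the members and entered this call, so the share describes where the members lay and does not support the label. With clusters called by PLET1 and PLBD1 alone, which did not choose the members, 4 clusters met the limit and held 375 members (60.0%, 56.0 to 63.9), a setting chosen after the data were seen. The share was 65.9% at a coarser resolution of 0.5 and 19.04% at a finer one of 2.0, so it depends on how finely the cells were divided.

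The other 255 members lay in clusters that did not meet the limit. A cluster led by MAL, FXYD4, UPK2 and UPK1B held 83 of them. MAL, FXYD4, UPK2 and THBS1 were also among the 10 leading genes of the trophoblast-like cluster that held 230 members. A further cluster led by MMRN1, CAVIN2 and LYVE1, genes of lymphatic endothelium, held 60, one led by SAL1 and EGR1 held 54, and one with ACTG2 and ACTA2, actins of smooth muscle, among its leading genes held 23. These 255 members had a median of 2702 UMIs, and the 370 a median of 3834. CTSD, a lysosomal protease gene that had no part in the call, was at 639 CPM in the 255 and 1366 CPM in the 370. CTSD was not left out of the clustering and is a leading gene of the trophoblast-like cluster that held 132 members. Its difference is therefore no independent check of the split. The 10 stroma markers, of which 6 were in the files, summed to 19664 CPM in the 255 members, 8011 CPM in the 370, 6576 CPM in the CHGA and CYP11A1 cells and 8672 CPM in all other EIS barcodes. The sum in the 255 rested on a few deep barcodes: 8 members in a cluster led by APOE and COL3A1, with a median of 24434.5 UMIs, held 67.2% of these stroma UMIs, and without them the sum was 7743 CPM. Because the members were spread over these clusters the cells are called members below and not a cell type, and values are given with and without the 255 where they differ.

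**Figure D1:**
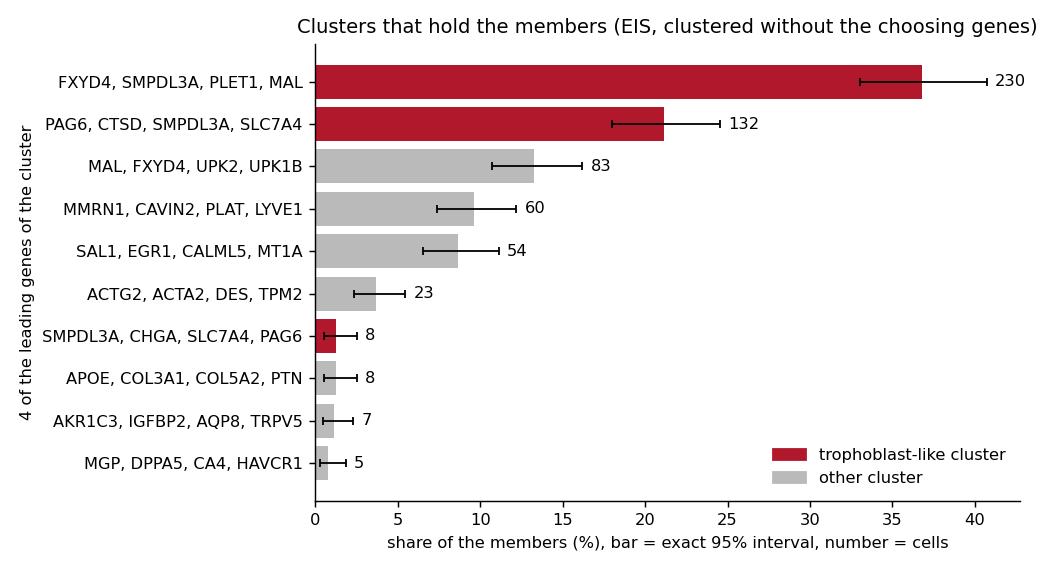
Horizontal bars give the share of the 625 members, in percent, in each cluster that held at least 5 of them, with the exact 95% interval and the number of cells. The 3 trophoblast-like clusters (red) held 230, 132 and 8 members, and 83 members lay in a cluster led by MAL, FXYD4, UPK2 and UPK1B.

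SMPDL3A and PAG6 UMIs were also found at low levels in clusters of other cells, as free RNA in droplet data can give. Together they stood at 2586 CPM in the members, 210 CPM in a lymphocyte cluster led by CCL5 (428 cells, median 1814.5 UMIs) and 44.6 CPM in a gland cluster led by UABP-2 and ACP5 (594 cells, median 9350.5 UMIs). The level in the members is set by their choice. After each cell was thinned to 2000 UMIs, PLET1, which did not choose them, was seen in 91.5% of members and 20.6% of the lymphocyte cluster, and PLBD1 in 45.4% of members and 5.00% of it. UPK2 was seen in 1.25% of the lymphocyte cluster and THBS1 in 2.50%. SLPI, the most abundant secretion of the gland cells, took 10.4% of the members' UMIs, 1.28% of the lymphocyte cluster's and 38.7% of the gland cluster's. Whether the members made SLPI themselves was not tested. With 10% of each group's UMIs removed in proportion to the library, no ratio past 2-fold among the genes named changed sign. That removal takes the same CPM from both groups and cannot reverse a ratio, so nothing is read from the kept sign. Without the barcodes marked as doublets, which were 45 members (7.20%) and 6.91% of all other EIS barcodes, none changed sign either. The share of free RNA in the members was not measured, and no larger share was tried. A kept sign does not show that a ratio kept its size.

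The members were set beside 3 other groups of EIS barcodes with at least 3 UMIs of SMPDL3A and PAG6. The CHGA and CYP11A1 cells (335) had at least 2 UMIs of those genes and at most 1 of UPK2, GATA3 and THBS1, with a median of 2983 UMIs. CHGA encodes a protein of hormone granules, and CYP11A1 the enzyme that starts steroid synthesis from cholesterol. The cells with both sets (858) met both limits and were the deepest, with a median of 5424.5 UMIs. The cells with neither set (796) were the shallowest, with a median of 2019 UMIs. A deeper cell passes a UMI limit more easily, so depth moves with these groups.

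The markers that did not choose the members were lower in them than in the CHGA and CYP11A1 cells. Those cells also held more SMPDL3A and PAG6, with a median of 18 UMIs together against 8 in members. Inside the members PLET1 rose with these UMIs, from 1315 CPM at 3 to 5 UMIs to 6177 CPM at 12 or more. PLBD1 rose from 127 to 510 CPM in the same cells. Whether this gradient accounts for the lower markers was not tested. PLET1 stood at 3583 CPM in members (exact Poisson interval 3513 to 3653), against 7358 CPM in CHGA and CYP11A1 cells, 9433 CPM in cells with both sets and 3582 CPM in cells with neither. PLBD1, a lysosomal phospholipase B-like gene, stood at 319 CPM in members, against 704, 817 and 269 CPM in those groups. In both genes the members lay nearest to the cells that had neither set and below the other 2 groups. PLBD1 was higher in members than in the cells with neither set by 0.25 (log2, 0.10 to 0.39). The log2 ratio of members over CHGA and CYP11A1 cells was -1.04 for PLET1 and -1.14 for PLBD1, and within the trophoblast-like clusters -1.01 for each. Of the 5 markers attached to the label, PLET1 and PLBD1 were therefore lower in the members than in the CHGA and CYP11A1 cells and the cells with both sets. Over all other EIS barcodes they were higher in the members by 0.57 and 0.56 (log2).

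**Figure D2:**
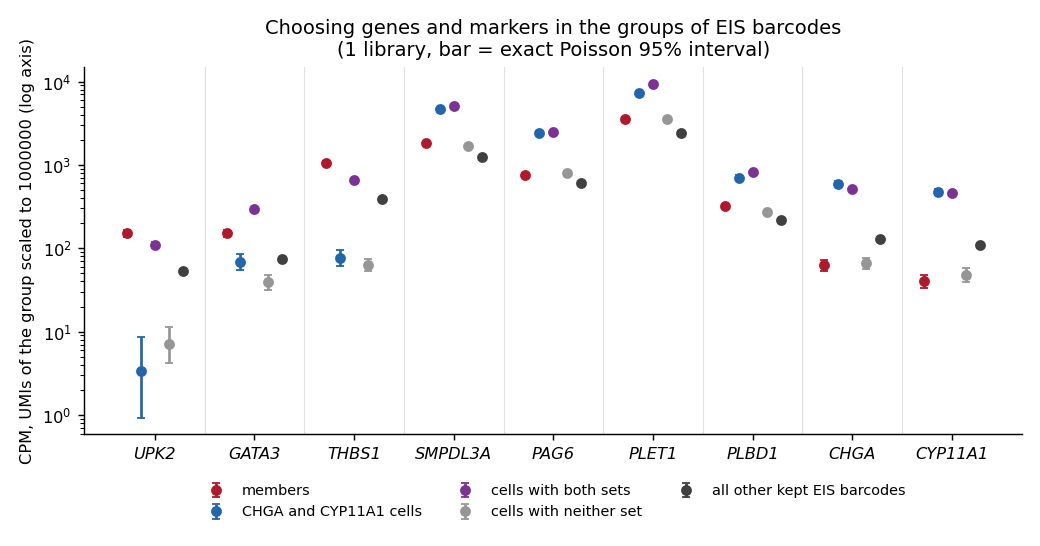
Points give CPM (UMIs per 1000000 UMIs of each group) on a log axis for the 7 rule genes and for PLET1 and PLBD1, with exact Poisson 95% intervals, in members (red), CHGA and CYP11A1 cells, cells with both sets, cells with neither set and all other EIS barcodes. UPK2 and THBS1 are highest in the members by the rule; PLET1 and PLBD1, which the rule did not use, are lower in members than in the CHGA and CYP11A1 cells and the cells with both sets.

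The next question was whether UPK2, GATA3 and THBS1 mark the same cells. Each gene was looked at in barcodes chosen by the other 2, among those with at least 3 UMIs of SMPDL3A and PAG6 and at most 1 of CHGA and CYP11A1, after thinning to 2000 UMIs. UPK2 was seen in 25.9% of the 499 cells with at least 2 UMIs of GATA3 and THBS1 (22.1 to 29.9), against 4.15% of the 265 cells with none (2.09 to 7.31). THBS1 was seen in 71.1% of the cells with at least 2 UMIs of UPK2 and GATA3 (64.5 to 77.1), against 37.4% of those with none (33.2 to 41.9). GATA3 was seen in 23.9% of the cells with at least 2 UMIs of UPK2 and THBS1 (20.0 to 28.1), against 16.6% of those with none (12.8 to 21.0). The intervals were apart for UPK2 and for THBS1, and for GATA3 they overlapped.

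One gene at a time, over all clusters, UPK2 was seen in 24.7% of cells with THBS1 (21.2 to 28.4) and 4.46% of cells without it (2.57 to 7.14), and in 23.1% of cells with GATA3 (18.4 to 28.3) and 14.0% of cells without it (11.4 to 16.9). GATA3 was seen in 28.3% of cells with UPK2 (22.7 to 34.5) and 18.99% of cells without it (16.1 to 22.1). The intervals of each of these pairs were apart. For GATA3 by THBS1 they overlapped, at 23.8% of cells with THBS1 (20.4 to 27.5) and 17.5% of cells without it (13.8 to 21.9).

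Within the trophoblast-like clusters the pairs with GATA3 overlapped. GATA3 was seen in 27.1% of cells with at least 2 UMIs of UPK2 and THBS1 (22.1 to 32.4) and in 29.7% of cells with none (21.4 to 39.1). UPK2 was seen in 27.7% of cells with THBS1 (23.2 to 32.7) and 5.83% of cells without it (2.38 to 11.6), but in 23.0% of cells with GATA3 (17.3 to 29.5) and 21.9% of cells without it (17.2 to 27.1). There the UPK2 shares were apart by THBS1, and a difference by GATA3 was not detectable at this depth, unlike over all clusters. Whether the 2 scopes differ was not tested. The cells with the larger sums were the deeper ones before thinning, with medians of 3974.5 and 2622.5 UMIs in the split for UPK2 by GATA3 and THBS1.

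**Figure D3:**
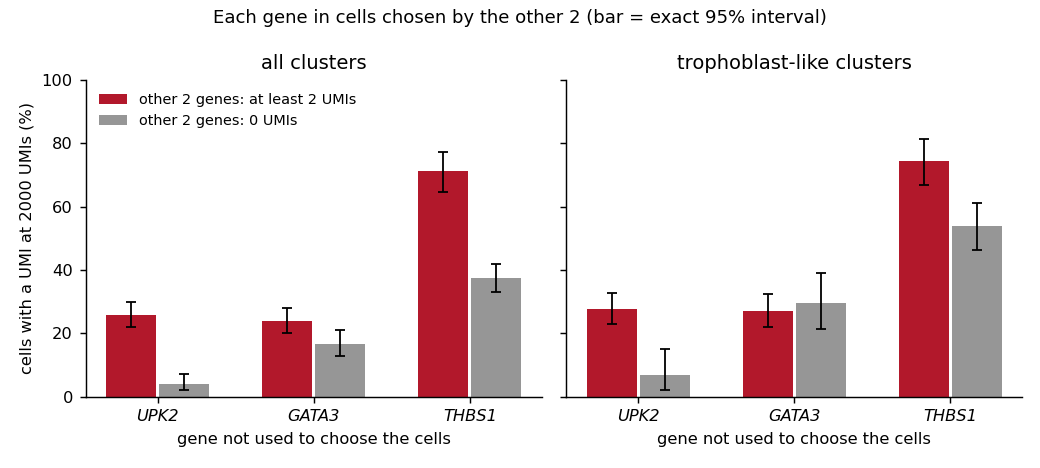
Bars give the share of cells, in percent, with a UMI of the gene named below after thinning to 2000 UMIs, in cells with at least 2 UMIs (red) and 0 UMIs (grey) of the other 2 genes, with exact 95% intervals, over all clusters (left) and within the trophoblast-like clusters (right). The UPK2 bars are apart in both panels, 25.9% and 4.15% on the left, and the GATA3 bars overlap on the right at 27.1% and 29.7%.

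The 3 trophoblast-like clusters were built without these genes, and the genes had different orders across them. From the cluster led by FXYD4 through that led by PAG6 and CTSD to that led by SMPDL3A and CHGA, UPK2 stood at 150, 80.6 and 12.9 CPM and THBS1 at 932, 525 and 66.3 CPM. GATA3 had the opposite order, at 178, 208 and 471 CPM, and so did SMPDL3A, at 2971, 4335 and 11412 CPM. CHGA, CYP11A1, PLET1 and PLBD1 shared the order of GATA3; PLET1 stood at 5498, 6690 and 11997 CPM. GATA3 therefore had the order of SMPDL3A and PLET1, and UPK2 and THBS1 the reverse. Among members, the 38 chosen by GATA3 alone had 13464 CPM of PLET1, and the 199 chosen by THBS1 alone had 1749 CPM. Both are pooled sums, and PLET1 ranged up to 687 UMIs in a member against a median of 9. A cluster led by MGP and DPPA5, not trophoblast-like, held 33391 CPM of PLET1 and 5 members. Whether a few cells carried the sum of the 38 was not tested. Of those 38 members 52.6% lay in trophoblast-like clusters (35.8 to 69.0), against 46.2% of the 199 (39.2 to 53.4).

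UPK2, THBS1 and the genes that stood with them were highest in cells with little placental RNA. A cluster of 38 barcodes led by TMEM213, MAL and FXYD4, with a median of 19245.5 UMIs and 1 member among them, held 869 CPM of UPK2 and 5042 CPM of THBS1, and 22.8 CPM of SMPDL3A and PAG6 together. In the members UPK2 stood at 151 CPM and THBS1 at 1061 CPM. The ratios among these genes were then compared. UPK2 per THBS1 was 0.143 in members, 0.161 in the trophoblast-like cluster led by FXYD4 and 0.172 in the 38 barcodes. FXYD4 per THBS1 was 0.674, 0.872 and 0.891, MAL per THBS1 0.328, 0.386 and 0.513, and UPK3A per THBS1 0.0624, 0.0825 and 0.0914 in the same order. Each was somewhat lower in the members than in the 38 barcodes. GATA3 per THBS1 had the opposite order, at 0.142 in members and 0.0113 in the 38 barcodes. The rule chose the members by UPK2, GATA3 and THBS1 and did not choose the clusters so. Selection by THBS1 raises the divisor in the members, so nothing is read from these differences. SLPI took 10.4% of UMIs in members and 0.186% in the 38 barcodes. Whether the UPK2 and THBS1 UMIs of the members came from the cells themselves or from RNA of such cells was not tested.

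**Figure D4:**
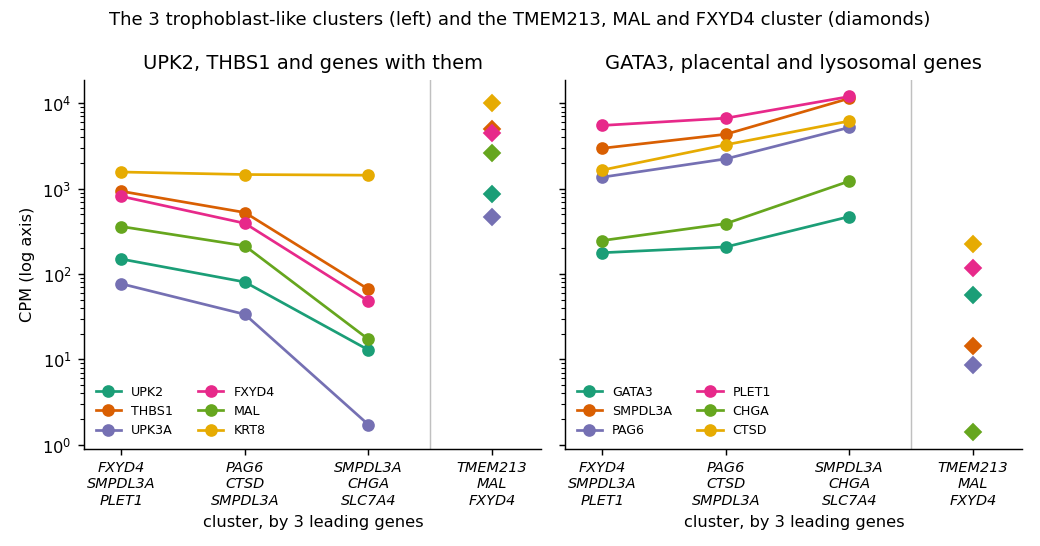
Points give CPM on a log axis in the 3 trophoblast-like clusters, joined by lines, and in the 38 barcodes led by TMEM213, MAL and FXYD4 (diamonds), named on the horizontal axis by their 3 leading genes. UPK2, THBS1, UPK3A, FXYD4 and MAL decline over the 3 clusters and are highest in the diamonds, whereas GATA3, SMPDL3A, PAG6, PLET1, CHGA and CTSD have the opposite order and are lowest in the diamonds.

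UPK2 had its 2 highest cluster levels in these 38 barcodes and in the cluster led by MAL, FXYD4 and UPK2 (460 barcodes, 204 CPM). THBS1 was wider, at 1899 CPM in a stromal cluster led by APOD and 946 CPM in a vascular cluster led by ACKR1. GATA3 reached 547 CPM in a lymphoid cluster led by RHEX and CD69. Each choosing gene was thus also found in clusters of this library that are not trophoblast-like.

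The members were then set over the CHGA and CYP11A1 cells across all genes with at least 20 UMIs in both groups together, outside the rule genes. Of 10742 genes 994 were at least 2-fold higher in the members (9.25%) and 248 at least 2-fold lower (2.31%). With median-of-ratios scaling the counts were 730 and 387, because the median gene was 0.16 (log2) higher in the members under scaling to the total. Within the trophoblast-like clusters 786 of 9225 genes were higher (8.52%) and 209 lower (2.27%), and 410 higher and 134 lower genes were called in both. The rule used reads of these same cells, so nothing is read from the counts.

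Uroplakin and superficial epithelium genes formed the group that stood highest. Of the 19 genes listed 9 were measured, 7 were at least 2-fold higher and 0 lower, with a median log2 ratio of 1.96 against 0.16 for all genes. Over all genes 9.25% were higher and 2.31% lower. UPK1B, the tetraspanin that pairs with UPK3A, stood at 93.0 CPM in members and 23.9 CPM in CHGA and CYP11A1 cells. UPK3A stood at 66.2 and 6.81 CPM, a log2 ratio of 3.28 (2.27 to 4.51). UPK1A rested on 32 UMIs in members and 2 in the CHGA and CYP11A1 cells. MUC1 and MUC20, membrane mucins, and PSCA, a surface protein of bladder and prostate epithelium, were higher too, MUC20 with 40 UMIs in members and 0 in the other cells. CRYGS had a log2 ratio of 0.17, under the 2-fold limit. Within the trophoblast-like clusters 6 of 7 measured genes were at least 2-fold higher, with a median of 1.71.

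Ratios were ranked only for genes whose higher group reached 100 CPM and 30 UMIs, which UPK1B, UPK3A and other genes named here with larger ratios did not. FXYD4, MAL, ATP1B1 and PRSS23, genes of ion transport, the apical membrane and proteolysis, were among the 12 largest so ranked over the CHGA and CYP11A1 cells. FXYD4, a small regulator of the sodium pump, stood at 716 CPM in members and 120 CPM in CHGA and CYP11A1 cells, a log2 ratio of 2.58 (2.33 to 2.83). MAL, a proteolipid of apical membrane traffic, stood at 348 and 66.4 CPM, a ratio of 2.39 (2.05 to 2.74). ATP1B1, the beta subunit of the sodium pump, stood at 376 and 97.1 CPM, and PRSS23, a secreted serine protease, at 758 and 250 CPM. In the cells with both sets PRSS23 stood at 557 CPM, nearer to the members. All 4 kept their direction within the trophoblast-like clusters, at 2.74, 2.32, 2.11 and 1.82, and all 4 were also among the 8 largest so ranked over the cells with neither set. In the 38 barcodes led by TMEM213 they stood at 4490, 2586, 2740 and 4202 CPM, above each group of cells with SMPDL3A and PAG6. This did not hold for most higher genes. Of the 12 largest ranked, 5 were above the members in the 38 barcodes. Of all 623 higher genes with a symbol 206 were (33.1%), and of the 133 lower ones 22 (16.5%). Among all 7092 measured genes with a symbol the share was 47.6%.

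UPTI, a plasmin and trypsin inhibitor of the pig uterus and conceptus, was among the 15 genes with the most UMIs. It stood at 19193 CPM in members, 15929 CPM in cells with both sets and 7412 CPM in CHGA and CYP11A1 cells. The level was 6190 CPM in cells with neither set and 83428 CPM in the 38 barcodes. Of the groups chosen with SMPDL3A and PAG6, the cells with both sets were thus nearest to the members. The keratins KRT8 and KRT18 of simple epithelium were higher by 0.75 (0.65 to 0.85) and 0.73 (0.61 to 0.86), under 2-fold. KRT8 stood at 1492 CPM in members, 886 CPM in CHGA and CYP11A1 cells and 1566, 1464 and 1437 CPM across the 3 trophoblast-like clusters. SULT1E1, the estrogen sulfotransferase, rested on 112 UMIs in members and 6 in the CHGA and CYP11A1 cells, a log2 ratio of 2.97 (1.80 to 4.45).

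**Figure D5:**
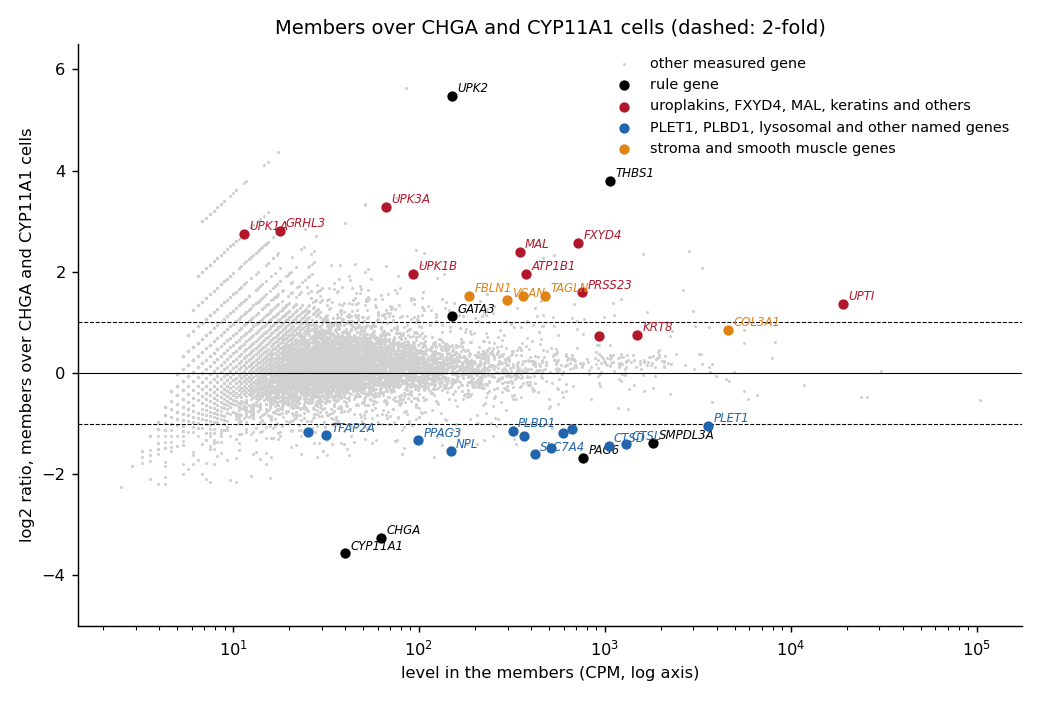
Each point is a gene with at least 20 UMIs in both groups together and none at 0 in either; the horizontal axis is its level in the members in CPM (log axis) and the vertical axis the log2 ratio of members over CHGA and CYP11A1 cells, with dashed lines at 2-fold. UPK3A, FXYD4, MAL and ATP1B1 lie above the upper line, and PLET1, CTSD, CTSL and SLC7A4 below the lower one; the black rule genes are placed by the choice of cells.

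Lysosomal enzymes were the group that stood lowest. Of the 44 genes listed 26 were measured, 0 were at least 2-fold higher and 10 lower, with a median log2 ratio of -0.56. Over all genes 9.25% were higher and 2.31% lower. Among the 10 were CTSA, CTSB, CTSD, CTSH and CTSL, which are lysosomal proteases of the cathepsin class, LGMN, the protease that matures several of them, and GM2A, which serves in breaking down glycolipids. CTSD stood at 1047 CPM in members and 2845 CPM in CHGA and CYP11A1 cells, a log2 ratio of -1.44 (-1.51 to -1.37). CTSL stood at 1308 and 3439 CPM and LGMN at 517 and 1433 CPM. Inside the members CTSD rose with SMPDL3A and PAG6, from 475 CPM at 3 to 5 UMIs to 1680 CPM at 12 or more. The CHGA and CYP11A1 cells held more of those UMIs, and the part of this gradient in the lower levels was not tested. Over the cells with neither set no lysosomal gene passed 2-fold in either direction, and the median was 0.20. Within the trophoblast-like clusters 9 of 24 were lower, with a median of -0.77, so lower genes of this list were found there too. The part of the 255 members elsewhere in the lower levels was not tested.

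The list of pregnancy-associated glycoproteins and placental secretions had 3 of its 22 genes measured and no common direction. PLET1 was lower, PTHLH, a hormone-like peptide gene, was higher on 23 UMIs in members and 3 in CHGA and CYP11A1 cells, and the median log2 ratio was 0.66. The other lower genes named here were chosen for their small ratios or added after their values were seen. SLC7A4, of the cationic amino acid transporter family, stood at 420 CPM in members and 1277 CPM in CHGA and CYP11A1 cells (log2 ratio -1.60, -1.72 to -1.49). PPAG3, a pregnancy-associated glycoprotein, stood at 99.1 and 249 CPM, NPL, an enzyme that breaks down sialic acid, at 148 and 434 CPM, and PLAU, the urokinase plasminogen activator, at 42.2 and 130 CPM. FABP5, a fatty acid carrier, stood at 593 and 1346 CPM. STAR, which brings cholesterol to CYP11A1 in the mitochondrion, stood at 58.7 and 147 CPM. GPR157, THRSP, MPP1 and ACP4, also among the 12 smallest ranked ratios, ran from -1.39 to -1.59. The cells with both sets resembled the CHGA and CYP11A1 cells here, with 1369 CPM of SLC7A4 and 3197 CPM of CTSD. The cells with neither set resembled the members, with 360 and 914 CPM.

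Of 38 trophoblast regulators listed, 33 were in the files, 29 had a UMI in the members, and 21 had enough UMIs to be compared with the CHGA and CYP11A1 cells. Of these 2 were at least 2-fold higher and 2 lower, with a median of 0.09. The shares over all genes were 9.25% higher and 2.31% lower, so the higher count was near its share. GRHL3, a factor of epithelial barrier formation, was higher by 2.81 (1.18 to 5.13) on 17.9 CPM in members and 2.56 CPM in CHGA and CYP11A1 cells. VGLL3, a partner of TEAD factors, was higher by 1.00 (0.13 to 1.99). TFAP2A and TFAP2C, AP-2 factors of trophoblast, had log2 ratios of -1.23 (-1.68 to -0.79) and -1.17 (-1.67 to -0.66). HAND1, another trophoblast factor, stood at 76.9 CPM in members and 142 CPM in CHGA and CYP11A1 cells, and GATA2 at 74.8 and 104 CPM, neither past 2-fold. The 38 barcodes led by TMEM213 held 93.9 CPM of GRHL3 and 0 UMIs of TFAP2A, TFAP2C and HAND1. CDX2, ELF5, GCM1 and DLX3 were at 7.87 CPM or less in the members, with intervals of the ratio that span 0.

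Several further genes that stood higher in the members had smaller ratios within the trophoblast-like clusters. PTX3, a soluble pattern recognition protein, was at 136 CPM in members and 34.9 CPM in CHGA and CYP11A1 cells, but at 281 CPM in the 255 members elsewhere and 21.7 CPM in the 370; its log2 ratio was 1.96, and 0.03 within the trophoblast-like clusters. AQP8, a water channel, had 1.33 and turned to -0.18, and CBR1, a carbonyl reductase acting on prostaglandins, had 1.01 and 0.03. PLAT, the tissue plasminogen activator, had 2.13 and 0.83 (0.14 to 1.57), and DPP4, a membrane peptidase, 1.56 and 0.66 (0.28 to 1.05), so both stayed higher there, under 2-fold. Smooth muscle and pericyte markers summed to 895 CPM in members, 330 CPM in CHGA and CYP11A1 cells and 682 CPM in the 370 members; ACTA2 and TAGLN kept ratios of 1.39 and 1.80 within the trophoblast-like clusters. Their part in the result was not tested. VCAN, FBLN1 and CDKN1C, the rest of the 12 largest ranked ratios, ran from 1.43 to 1.53, and from 0.77 to 1.41 within those clusters. TAGLN was at 1108 CPM in the 38 barcodes led by TMEM213, and ACTA2 at 1.42 CPM.

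Cell cycle genes were higher in the members by count, with 8 of 21 measured genes past 2-fold, 0 lower and a median of 0.68. Over all genes 9.25% were higher and 2.31% lower, and 8.52% and 2.27% within the trophoblast-like clusters. CCND1, a cyclin of G1, stood at 94.5 CPM in members and 34.1 CPM in CHGA and CYP11A1 cells, and kept its ratio, 1.47 and 1.43 within the trophoblast-like clusters. CENPF and CCNB1, genes of mitosis, were at 27.6 and 7.16 CPM in members. Within the trophoblast-like clusters 3 of 16 were past 2-fold, with a median of 0.49. No cycling is read from these levels.

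Imprinted genes, which are read from 1 parent's copy, were also higher by count, with 5 of 11 measured past 2-fold, 0 lower and a median of 0.70. For this and the next lists, the shares over all genes were 9.25% higher and 2.31% lower. Within the trophoblast-like clusters these shares were 8.52% and 2.27%. The 5 were CDKN1C, an inhibitor of the cell cycle, DLK1, PEG10, MEST and PLAGL1. Within the trophoblast-like clusters 2 of 9 were past 2-fold, CDKN1C and MEST, with a median of 0.02. DLK1 and MEST stand in the marker list of conceptus mesenchyme too, whose 9 genes summed to 315 CPM in members and 291 CPM in CHGA and CYP11A1 cells, and to 387 CPM in the 255 members outside those clusters. The near-equal sums hide opposite directions. Of 6 measured genes 4 were at least 2-fold higher, DLK1, HAND2, TBX20 and MEST, and 0 lower, with a median of 1.22. HAND1, also on this list, was lower in the members, under 2-fold. The part of mesenchyme in the result was not tested. Of 12 genes of matrix and integrins 4 were higher, COL17A1, ITGA5, ITGAV and COL4A2, and SDC1 was lower, and within the trophoblast-like clusters 3 were higher and 1 lower. Of 23 genes of cholesterol and lipid handling 5 were higher and 1 lower, and within those clusters 2 and 1 of 22.

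In some groups no gene passed 2-fold. Of 17 measured genes of interferon response and antigen presentation and of 27 immediate early and stress genes, 0 passed 2-fold in either direction, with medians of 0.16 and 0.14. The same held for 16 genes of endocytosis and uptake and for 12 genes of iron handling, with medians of 0.06 and -0.12. Over all genes 9.25% were higher and 2.31% lower, and 8.52% and 2.27% within the trophoblast-like clusters. Few calls are due in lists of this size, so nothing is read from counts of 0. Among 33 solute carriers and channels 5 were higher and 3 lower. Among 11 measured genes of prostaglandin enzymes and transport 4 were higher, PTGS2, PLA2G4A, HPGD and CBR1, and 0 lower, with 1 of 11, PLA2G4A, higher within the trophoblast-like clusters. PTGES, the prostaglandin E synthase, stood at 270 CPM in members, 298 CPM in CHGA and CYP11A1 cells and 149 CPM in cells with neither set.

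Against the cells with neither set, 491 of 11496 genes were at least 2-fold higher in the members (4.27%) and 207 lower (1.80%). Uroplakin and superficial epithelium genes again led, with 7 of 9 measured genes higher and a median of 2.58. FXYD4 was higher by 3.10 (2.89 to 3.32) and MAL by 2.93 (2.64 to 3.23), and KRT8 and KRT18 passed 2-fold at 1.61 and 1.35. Of the other 4 of the 8 largest ratios, ranked with the same limits, DPP4 had 2.07 and TNFSF10 1.80, while AKR1C3 with 1.81 and APOD with 2.29 turned to -0.50 and -0.065 within the trophoblast-like clusters. Of genes that were lower than in the CHGA and CYP11A1 cells, PLET1 had a log2 ratio here of 0.00 (-0.04 to 0.04), CTSD 0.20 and SLC7A4 0.22. PTN, PLVAP and SCARA5, among the 4 smallest so ranked, had log2 ratios of -1.08, -1.49 and -1.35, and PLVAP and SCARA5 turned positive within the trophoblast-like clusters. The 2 groups differ in the mix of clusters, with 59.2% of members and 21.2% of cells with neither set in trophoblast-like clusters.

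Against all other EIS barcodes, 608 of 15441 genes were at least 2-fold higher in the members (3.94%) and 1005 lower (6.51%). With totals that leave out the 5 genes over 1% of the library the counts were 408 and 1332, and with the mean of the cells' own CPM 677 and 1870. UPK3A, FXYD4 and MAL were higher by 1.35, 1.41 and 1.34, and UPTI by 1.22. Markers of T or NK cells summed to 184 CPM in members and 429 CPM in the other barcodes, and markers of macrophages or monocytes to 553 and 891 CPM. Gland and lumen markers summed to 161540 CPM in members and 246036 CPM in the other barcodes, and red cell markers to 25.4 and 607 CPM.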

How the data were processed

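The authors deposited raw UMI counts per gene and barcode for each library, with no normalization. Cell Ranger 2.1.1 is named per the submitters' processing notes and cellranger 6.1.0 per the file headers; neither the genome build nor the gene annotation is given in the sources used here. EIS held 8848 barcodes and 36069473 UMIs, EL 10936 and 43302286. Features sharing a symbol were summed. The members, groups and gene lists were chosen with earlier results of these data known. UMIs were summed per group and scaled to 1000000 (CPM) with exact Poisson intervals; ratios have exact conditional intervals and shares exact Clopper-Pearson intervals, all at 95%. A count of 0 was set to 3 UMIs for a bound. Calls needed 20 UMIs over both groups and a 2-fold ratio. Barcodes were clustered with scanpy 1.11.5 and leidenalg 0.10.2 (2000 variable genes, 30 components, 15 neighbours, resolution 1.0). Scrublet's automatic threshold marked 0 barcodes, so the top 0.8% per 1000 barcodes was marked and removed only as an alternative. Named genes were the rule genes and markers, the 15 most abundant, the 12 largest and smallest ratios over the CHGA and CYP11A1 cells, the 8 largest and 4 smallest over the cells with neither set (ranked where the higher group reached 100 CPM and 30 UMIs), up to 4 per list with at least 50 CPM, and the regulators; others named under a list or cluster were added after their values were seen. A few genes counted here are left out of the text. The ratio and interval code was tested on simulated counts.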

Additional observations from a re-analysis of the deposited data

How the results depend on the processing

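No paired analysis was possible because each group is 1 library, and no replicate could be left out. The number of members, 625, was 338 with CHGA and CYP11A1 at 0, 236 without THBS1 in the rule and 370 within trophoblast-like clusters, a setting chosen after seeing the data; it lay between 423 and 887 under the other limits. The share of members in trophoblast-like clusters was 65.9% at resolution 0.5 and 19.04% at 2.0. Without thinning, the shares in cells with at least 2 UMIs of the other genes were 36.3% for UPK2, 33.8% for GATA3 and 78.0% for THBS1.

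Over the CHGA and CYP11A1 cells, the counts of higher genes were 606 after thinning, 1674 with no minimum of UMIs and 164 at 4-fold, and those of lower genes 387 with median-of-ratios scaling, 1285 with no minimum and 12 at 4-fold. Over the cells with neither set they were 1138 higher and 1024 lower with no minimum, 79 and 4 at 4-fold, and 127 lower within the trophoblast-like clusters. Over all other EIS barcodes they were 370 higher after thinning, 1751 higher with no minimum, 26 higher and 120 lower at 4-fold, and 1870 lower with the mean of the cells' own CPM. Thinning and the 4-fold limit lower a count by their construction; other causes were not tested.

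The direction of 15 values turned, 14 of them within the trophoblast-like clusters (log2). Over the CHGA and CYP11A1 cells AQP8 was at -0.18. Over the cells with neither set RBP7 was at -0.29, AKR1C3 -0.50, APOD -0.065, HPGD -0.10, IGFBP2 -0.49, SCARA5 0.045, PLVAP 0.40, APOE 0.0077, CBR1 -0.18 and AQP8 -1.05. Over all other EIS barcodes VCAN was at -0.38, PTX3 -0.67 and AQP8 -0.11. The other was AQP8 over the cells with neither set after thinning, at -0.053. The cause was not tested. With 10% of UMIs removed as free RNA, no ratio past 2-fold among the genes named changed sign. That removal takes the same CPM from both groups, so it could not have changed a sign. Without barcodes marked as doublets none changed sign either. No larger share of free RNA was tried, and its share in the members was not measured. Genes under about 20 UMIs in both groups, and GATA3 shares in thinned cells, are at the limit of this depth.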
